A study of Mus musculus with 7 samples.

Results

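Names that end in os mark mouse transcripts annotated on the strand opposite to a named gene, so that Igf1os lies opposite Igf1. Of 293 such names in the expression table, 278 had their sense partner in the same table, and 15 had none, most of them ordinary gene symbols that end in these letters, such as Icos or Nanos1. The 2 pairs Frmd8os with Frmd8 and Mkln1os with Mkln1 were lost because cuffdiff marked a locus as failed, which left 276 pairs with 234 different partners among the 50354 names of the table. The rule for members uses names alone and no measured value, although it was set with earlier results of these data known. All tissues came from wild-type mice of 36 weeks, of the strain labelled C57BL/6 and named C57BL/6N in the study's text, on the diet labelled NCD, and no group had a further treatment. RNA-Seq covered 7 tissues with 1 library per tissue, namely liver, kidney, cortex, skeletal muscle (muscle), interscapular brown adipose tissue (BAT) and the visceral (VAT) and subcutaneous (SCAT) adipose tissues. Without replicates no error and no test can be given for a difference between tissues. Expression is given in FPKM, in which fragments are divided by the length of the transcript and by the size of the library, so that levels of different genes can be set side by side. The number of fragments behind a value is unknown.

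Opposite-strand transcripts are mostly long noncoding RNAs that start within the body of a sense gene or next to its promoter. Many promoters fire in both directions, and a transcript that begins head to head with a gene shares its open chromatin. Others begin at the far end of the gene and run through its exons in antisense, where they can form duplexes with the sense RNA, recruit chromatin modifiers or only mark transcription of an active domain. A few os names are ordinary protein-coding genes that were named for the neighbour they lie opposite to.

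By the GENCODE annotation of GRCm38, 274 of the 276 os names were found, all but Chd3os and Toporsos, and 239 of these were typed as antisense, 12 as processed transcripts, 10 as lincRNA and 8 as protein coding. The strand was annotated for both members in 272 pairs, and in 272 of these the members lay on opposite strands. RefSeq promoter windows (GRCm38.p6, 250 bases before and 50 after a start) were found for 163 os names. The windows of 5 os transcripts, picked after their values were seen because they were high in different tissues, are shown first. They are followed by Zbtb11os1, whose partner row, shared with Rpl24, had another tissue pattern. The windows let base composition be read beside the levels that follow. Capitals mark matches, on either strand, to the TATA box TATAAA, the CCAAT box CCAAT or the GC box GGGCGG, motifs that do not overlap each other here.
Igf1os (chr10:87863344-87863643, minus strand): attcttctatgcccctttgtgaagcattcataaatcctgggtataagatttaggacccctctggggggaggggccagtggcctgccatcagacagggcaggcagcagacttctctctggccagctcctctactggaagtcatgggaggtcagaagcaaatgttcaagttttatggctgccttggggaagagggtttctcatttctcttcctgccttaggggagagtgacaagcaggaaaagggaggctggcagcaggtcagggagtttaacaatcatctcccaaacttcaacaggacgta
Slc13a2os (chr11:78394235-78394534, plus strand): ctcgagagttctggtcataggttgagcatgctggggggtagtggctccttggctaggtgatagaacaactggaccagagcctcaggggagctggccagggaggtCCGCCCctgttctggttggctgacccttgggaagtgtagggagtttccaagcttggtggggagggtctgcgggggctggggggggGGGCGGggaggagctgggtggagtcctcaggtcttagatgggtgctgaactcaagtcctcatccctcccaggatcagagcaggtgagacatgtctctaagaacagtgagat
Uchl1os (chr5:66676448-66676747, minus strand): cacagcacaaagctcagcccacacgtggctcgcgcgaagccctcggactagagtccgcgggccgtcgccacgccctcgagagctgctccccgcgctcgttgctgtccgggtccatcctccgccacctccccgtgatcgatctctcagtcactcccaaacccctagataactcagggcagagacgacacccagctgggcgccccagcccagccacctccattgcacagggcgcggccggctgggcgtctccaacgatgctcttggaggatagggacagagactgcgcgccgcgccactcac
Arhgap15os (chr2:44065275-44065574, minus strand): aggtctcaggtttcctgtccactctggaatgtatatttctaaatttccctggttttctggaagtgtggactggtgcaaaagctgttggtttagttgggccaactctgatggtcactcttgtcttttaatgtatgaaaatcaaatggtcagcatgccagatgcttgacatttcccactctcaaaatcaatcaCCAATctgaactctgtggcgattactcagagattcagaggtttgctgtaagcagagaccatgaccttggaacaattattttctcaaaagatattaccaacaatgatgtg
Unc45bos (chr11:82933334-82933633, minus strand): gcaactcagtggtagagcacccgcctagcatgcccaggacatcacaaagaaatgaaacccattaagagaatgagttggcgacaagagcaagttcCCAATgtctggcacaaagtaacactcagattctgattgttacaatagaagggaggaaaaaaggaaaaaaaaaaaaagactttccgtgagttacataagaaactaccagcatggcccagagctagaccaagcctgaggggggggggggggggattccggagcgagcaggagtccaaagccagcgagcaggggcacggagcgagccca
Zbtb11os1 (chr16:55974568-55974867, minus strand): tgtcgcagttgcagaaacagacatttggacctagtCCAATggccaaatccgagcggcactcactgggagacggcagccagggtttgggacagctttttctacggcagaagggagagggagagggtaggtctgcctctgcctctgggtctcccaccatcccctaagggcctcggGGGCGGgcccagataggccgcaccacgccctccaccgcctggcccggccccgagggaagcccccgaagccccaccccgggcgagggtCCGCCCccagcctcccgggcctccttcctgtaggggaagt

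The liver-high Igf1os had 1 CpG in its window and no match to the 3 motifs, and the cortex-high Uchl1os had 29 CpGs and no match. Slc13a2os, highest in kidney, had 4 CpGs and a GC box on each strand. Arhgap15os, highest in SCAT, had 1 CpG and a CCAAT box, Unc45bos, highest in muscle, had 8 CpGs and a CCAAT box, and Zbtb11os1 had 17 CpGs with a CCAAT box and GC boxes on both strands. Over all 199 windows of os members the median was 6 CpGs, against 16 over 270 windows of partners and 7 over all 32851 windows of the RefSeq table. TATAAA was present in 7.54% of the os windows and in 13.6% of all windows, CCAAT in 33.7% and 37.4%, and GGGCGG in 27.1% and 35.7%. Of the partner windows, 48.5% held GGGCGG. These are matches of letters and were not compared with any binding data.

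Most marker genes of the labelled tissues were highest there, and several libraries also held markers of other cells. Apoa1 and Ttr had 2521 and 3530 FPKM in liver, and Ttr had 195 in cortex. The liver marker Alb did not match, with 253 FPKM in VAT and a listed 0 in liver that cuffdiff marked LOWDATA, which need not be a measured level. Such zeros occurred in 83 rows of the table, and 0 of these rows carry a member of the os pairs. The summed FPKM of Umod, Slc34a1 and Kap was 25195 in kidney, that of the neuronal genes Snap25, Rbfox3 and Slc17a7 was 334 in cortex and at most 0.354 elsewhere, and that of Ckm and Mylpf was 14187 in muscle and 248 in BAT. In SCAT the lymphocyte genes Ms4a1, Cd79a and Cd3e summed to 89.5 FPKM, against 0.201 to 2.80 in the other tissues, and the acinar genes Cpa1, Ctrb1 and Cela1 summed to 77.3. In VAT the epididymal genes Lcn5 and Adam7 summed to 1253 FPKM. In bulk tissue, fewer cells of a type and less RNA per cell cannot be told apart.

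Of the 276 os transcripts, 116 (42%) reached 1 FPKM in at least 1 tissue, against 38.1% of all names in the table. A further 149 lay between 0 and 1 FPKM in every tissue, and 11 were listed at 0 throughout. At least 10 FPKM was reached by 28 (10.1%), against 18.2% of all names, and at least 100 by 4 (1.45%), against 2.96%. Their partners reached 1 FPKM in 226 pairs, so that 116 os transcripts stayed under 1 FPKM opposite a partner above it, 41 of them opposite a partner of at least 10 FPKM. Names just under the minimum were Plxna4os2 at 0.922 and Kdm6bos at 0.917 FPKM, and names just over it were Stamos at 1.01 and Bcas3os1 at 1.01 FPKM.

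The 12 highest os transcripts in loci of their own ranged from below the level of their partner to far above it. Chn1os1, inside the gene of the Rac-inactivating protein alpha-chimaerin, had 268 FPKM in cortex, 2.70 in BAT, 0.554 in VAT, 0.244 in SCAT, 0.217 in muscle and 0.0928 in kidney, and was listed at 0 in liver. Chn1 itself had 268 FPKM in cortex, 6.79 in BAT, 3.51 in kidney, 2.32 in VAT, 1.45 in muscle, 1.36 in SCAT and 0.105 in liver. Chn1os3, which overlaps the other end of the gene, had 219 FPKM in cortex, 4.90 in BAT, 2.08 in kidney, 1.60 in VAT, 0.869 in SCAT, 0.867 in muscle and 0.114 in liver. All 3 were thus cortex RNAs of similar FPKM, and the annotations of Chn1os1 and Chn1os3 share 533 and 220 exonic bases with Chn1 on the other strand. Sardhos, inside the gene of the mitochondrial enzyme sarcosine dehydrogenase, had 229.7 FPKM in liver, 84.1 in kidney, 8.07 in VAT, 3.99 in BAT, 2.66 in SCAT, 1.98 in cortex and 0.404 in muscle. Sardh had 82.3 FPKM in liver, 27.1 in kidney, 3.39 in VAT, 2.31 in BAT, 0.812 in SCAT, 0.746 in cortex and 0.464 in muscle. Liver and kidney were the high tissues of both, and the os transcript exceeded the mRNA by 1.48 on the log2 scale in liver.

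Rab10os, which meets the small GTPase gene Rab10 tail to tail, had 90.8 FPKM in muscle, 22.6 in BAT, 15.1 in cortex, 15 in liver, 14.4 in kidney, 10.8 in SCAT and 10.6 in VAT. Rab10 had 49.8 FPKM in muscle, 14.8 in BAT, 9.43 in liver, 8.67 in kidney, 7.31 in cortex, 5.88 in VAT and 5.74 in SCAT. Muscle was the highest tissue and BAT the next for both, and the profiles had a Pearson r of 0.99 over the 7 tissues. A second row of Rab10 on the same strand, which also carries 1110002L01Rik and AC160138.1, was almost as high and led by cortex, with 47.3 FPKM there, 32.2 in muscle and 2.66 in BAT, so that the shared order is seen on only 1 of the 2 rows. With the rows of a name summed, r was 0.79. Egfros, within the gene of the epidermal growth factor receptor, had 65.5 FPKM in liver, 5.57 in muscle, 3.96 in kidney, 3.71 in VAT, 2.82 in SCAT, 0.904 in BAT and 0.626 in cortex. Egfr had 102 FPKM in liver, 15.6 in kidney, 10.5 in VAT, 9.83 in muscle, 7.24 in SCAT, 2.36 in cortex and 2.32 in BAT. Liver led both. The row of Egfros also carries the name Egfr, and no exonic base of the annotated Egfros lies in an Egfr exon.

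The remaining ones exceeded their partners by more. Tnfsf13os, around the gene of the B-cell cytokine APRIL, had 126 FPKM in BAT, 62.3 in liver, 47.9 in muscle, 35.3 in kidney, 34.8 in SCAT, 24.2 in cortex and 20.8 in VAT. Its partner row, shared with Tnfsf12 and Tnfsfm13, had 4.95 FPKM in VAT, 4.48 in BAT, 3.87 in SCAT, 3.47 in muscle, 3.38 in kidney, 3.31 in liver and 1.45 in cortex. The os transcript was far above its partner row in all 7 tissues and highest in BAT, whereas the partner row was highest in VAT. Toporsos had 64.8 FPKM in BAT, 51.1 in muscle, 22.1 in kidney, 21.4 in liver, 11.5 in VAT, 8.62 in cortex and 5.73 in SCAT. Topors, a ubiquitin and SUMO ligase, had 1.15 FPKM in liver, 0.672 in kidney, 0.661 in BAT, 0.550 in SCAT, 0.517 in muscle, 0.408 in VAT and 0.358 in cortex. Topors thus stayed near 1 FPKM or below it in all libraries. Prss23os had 64.0 FPKM in muscle, 46.7 in VAT, 12.8 in SCAT, 12.7 in kidney, 12.2 in BAT, 6.10 in cortex and 3.17 in liver. The serine protease gene Prss23 had 4.06 FPKM in VAT, 3.32 in muscle, 1.09 in kidney, 0.939 in SCAT, 0.717 in BAT, 0.549 in liver and 0.295 in cortex. VAT and muscle were the top tissues of both members of the Prss23 pair, in opposite order.

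Hoxd3os1, in the Hoxd cluster of body-axis genes, had 38.2 FPKM in kidney, 36.8 in muscle, 24.4 in VAT, 7.38 in BAT, 5.97 in SCAT, 0.0467 in liver and 0.0451 in cortex. The row of Hoxd3, which also carries Hoxd4 and Gm28230, had 2.94 FPKM in VAT, 1.99 in kidney, 0.607 in BAT, 0.575 in SCAT, 0.511 in muscle and 0.00727 in liver, and was listed at 0 in cortex. Both were near 0 in liver and cortex. The VAT library also held the epididymal genes at a summed 1253 FPKM and the epithelial or mesothelial genes Krt14, Krt19 and Upk3b at 12.5, and their part in the VAT level was not tested. Slfn5os had 32.2 FPKM in muscle, 31.2 in BAT, 23.4 in VAT, 20.5 in SCAT, 12.2 in kidney, 7.10 in liver and 0.558 in cortex. Slfn5, a Schlafen family gene, had 6.56 FPKM in BAT, 5.70 in VAT, 5.52 in SCAT, 3.63 in muscle, 2.92 in kidney, 1.62 in liver and 0.171 in cortex. Cortex was lowest for both by a wide margin. The protein-coding neighbours Wdr83os and Cebpzos, which comes next after the 12, had muscle as their highest tissue, as their partners did. Wdr83os had 33.7 FPKM in muscle, 17.0 in BAT, 14.7 in liver, 14.1 in kidney, 12.1 in VAT, 9.19 in cortex and 6.11 in SCAT. Wdr83 had 7.57 FPKM in muscle, 5.09 in liver, 5.07 in BAT, 4.23 in kidney, 3.87 in VAT, 3.61 in cortex and 2.94 in SCAT. Wdr83 is a scaffold protein with WD repeats, and its neighbour was above it throughout. Cebpzos had 30.8 FPKM in muscle, 21.6 in kidney, 19.0 in BAT, 13.8 in cortex, 13.5 in liver, 7.02 in VAT and 5.44 in SCAT. Cebpz had 8.13 FPKM in muscle, 7.33 in BAT, 6.88 in liver, 5.53 in kidney, 4.69 in cortex, 4.51 in SCAT and 3.52 in VAT. Cebpzos, too, was the higher member in each of the 7 tissues.

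**Figure D1:**
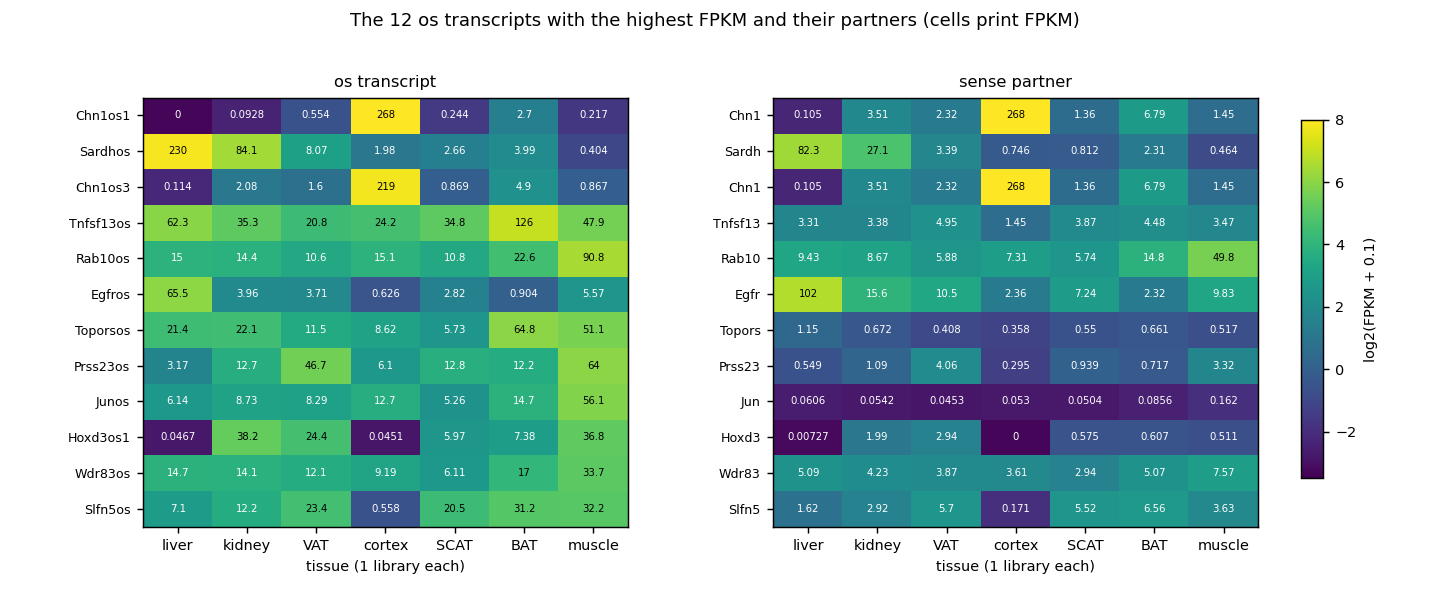
Heat maps of FPKM in 7 tissues (columns, 1 library each) for the 12 os transcripts with the highest FPKM (left, rows) and their sense partners (right), coloured by log2(FPKM + 0.1), with the FPKM printed in each cell. Chn1os1 and Chn1os3 match Chn1 in cortex, whereas Tnfsf13os, Toporsos and Prss23os are far above their partners.

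Junos, also among the 12, had a partner that did not reach 1 FPKM. It had 56.1 FPKM in muscle, 14.7 in BAT, 12.7 in cortex, 8.73 in kidney, 8.29 in VAT, 6.14 in liver and 5.26 in SCAT. Jun, the immediate early transcription factor gene, had only 0.162 FPKM in muscle, 0.0856 in BAT, 0.0606 in liver, 0.0542 in kidney, 0.0530 in cortex, 0.0504 in SCAT and 0.0453 in VAT. The row of Junos also carries the name n-R5s189, and the table has no other row for Jun. Whether fragments of Jun were counted on another row was not tested, so its low value describes this row alone. The other 5 os transcripts above 1 FPKM with a partner below it were Brip1os, Hoxb5os, Mypopos, Emx2os and Has2os. Brip1os lay between 4.15 FPKM in VAT and 7.33 in SCAT, while the helicase gene Brip1 did not exceed 0.669. Emx2os was highest in kidney at 1.80 FPKM and second in VAT at 1.54, as was the homeobox gene Emx2 at 0.555 and 0.470. Kidney and VAT thus led both members of the Emx2 pair, the latter again in the library with epididymal and epithelial markers. Has2os had 1.48 FPKM in muscle against 0.148 for the hyaluronan synthase gene Has2, and its row on the annotated strand had 0.708. Mypopos lay between 1.19 and 2.83 FPKM, and Mypop between 0.232 and 0.743.

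The tissue profiles of both members were compared in the 108 pairs that lie on separate rows of the table and have both members at 1 FPKM or more. Both had the same highest tissue in 72 pairs (66.7%). Differently named loci that share their bounds did so in 37.3% of 12334 pairs, or 42.7% where they lie on opposite strands, whereas annotated antisense genes without the os suffix shared the highest tissue with the gene opposite in 70.7% of 689 pairs. The share of os pairs was therefore above that of neighbouring loci in general and close to that of other antisense genes, and nothing here is particular to the os names. The median Pearson r of log2(FPKM + 0.1) over the 7 tissues was 0.94 for the os pairs, with quartiles of 0.75 and 0.98, and the median Spearman rho was 0.79. The same median r was 0.92 over the other antisense genes and 0.58 over opposite-strand loci with the same bounds. An r was at least 0.9 in 66 pairs, under 0.5 in 21 and under 0 in 9. No counts at these cutoffs are given for the other sets. Their quartiles of r were 0.72 and 0.97 over the other antisense genes, close to those of the os pairs. Over opposite-strand loci with the same bounds they were 0.08 and 0.89. These correlations describe 7 points that share their libraries, and the 108 pairs hold 102 different os rows and 95 different partners.

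**Figure D2:**
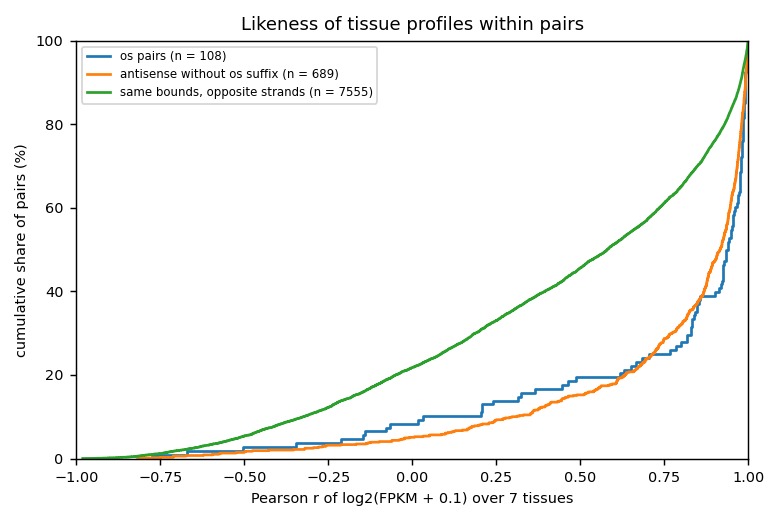
Cumulative share of pairs (y axis, %) against the Pearson r of log2(FPKM + 0.1) over 7 tissues (x axis) for the 108 os pairs, 689 annotated antisense genes without the os suffix and 7555 pairs of differently named loci with the same bounds on opposite strands. The os curve runs beside that of the other antisense genes, and both lie to the right of the loci that only share bounds.

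Cortex was the most frequent highest tissue, for 29 os transcripts and 31 partners, and for both members of 23 pairs. Liver was the highest tissue of 26 os transcripts but of 16 partners, and of both members in 13 pairs. Kidney led both members in 13 pairs, muscle in 10, SCAT in 7, BAT in 6 and VAT in none. These counts of highest tissues have no share over all names beside them and do not mark a trait of the os pairs. Enrichment in a tissue meant at least 1 FPKM there and a log2(FPKM + 0.1) that exceeded every other tissue by 2 or more, which is 4-fold. By this rule 30 os transcripts were enriched, 25.9% of the 116 above 1 FPKM, against 23.0% of all names at that level. Cortex held 13, against a background of 8.32% of names enriched there, liver 5 (3.82%), kidney 5 (2.55%), SCAT 4 (2.67%) and muscle 3 (3.63%). VAT and BAT held none, with backgrounds of 1.24% and 0.779%. In 27 of the 108 pairs (25%) the partner was enriched in the same tissue, against 5.92% of loci with the same bounds and 19.0% of the other antisense genes. In 0 pairs were the members enriched in different tissues. The 27 pairs hold 26 different os rows and 23 different partners.

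**Figure D3:**
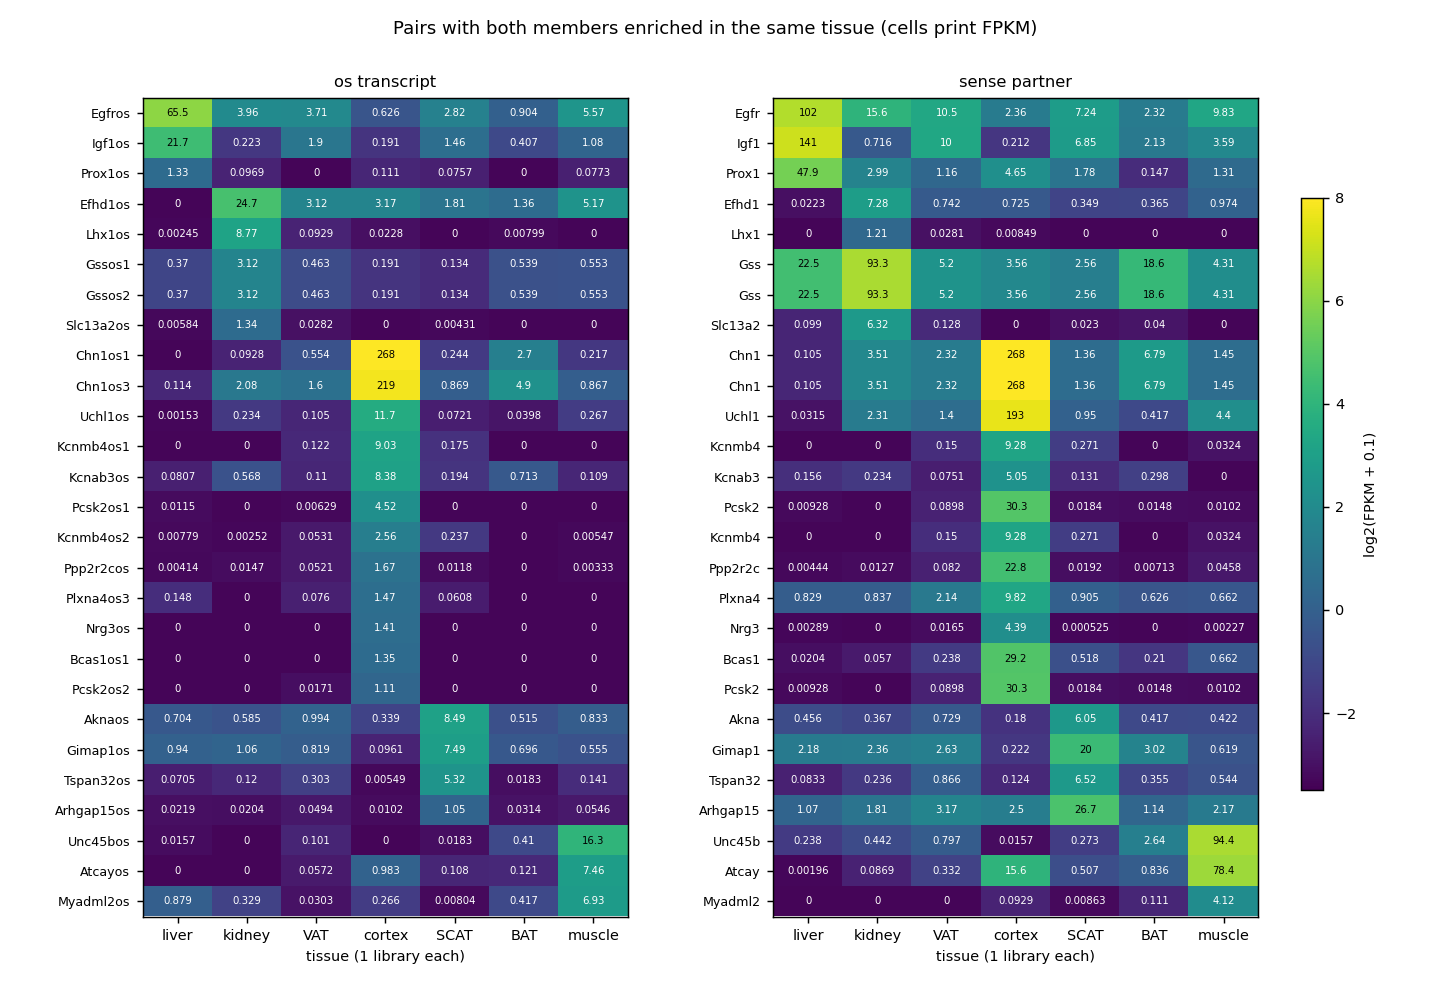
Heat maps of FPKM in 7 tissues (columns, 1 library each) for the 27 pairs with both members enriched in the same tissue, os transcripts on the left and partners on the right, coloured by log2(FPKM + 0.1), with the FPKM printed in each cell. From top to bottom stand 3 liver, 5 kidney, 12 cortex, 4 SCAT and 3 muscle pairs, and the bright column is the same on both sides.

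Among the 12 cortex pairs, Uchl1os starts head to head with Uchl1, the abundant ubiquitin hydrolase of neurons, and had 11.7 FPKM in cortex, 0.267 in muscle, 0.234 in kidney, 0.105 in VAT, 0.0721 in SCAT, 0.0398 in BAT and 0.00153 in liver. Uchl1 had 193 FPKM in cortex, 4.40 in muscle, 2.31 in kidney, 1.40 in VAT, 0.950 in SCAT, 0.417 in BAT and 0.0315 in liver. The mRNA was the higher member, by 4.03 on the log2 scale in cortex. Kcnmb4os1 had 9.03 FPKM in cortex, 0.175 in SCAT and 0.122 in VAT, and was listed at 0 in muscle, liver, kidney and BAT, and Kcnmb4, a subunit of the calcium-activated BK potassium channel, had 9.28 FPKM in cortex, 0.271 in SCAT, 0.150 in VAT and 0.0324 in muscle, and was listed at 0 in liver, kidney and BAT. These were almost equal, and a second transcript, Kcnmb4os2, was lower at 2.56 FPKM in cortex and 0.237 in SCAT. Kcnab3os, opposite another potassium channel subunit, was the higher member, with 8.38 FPKM in cortex and at most 0.713 elsewhere against 5.05 and at most 0.298 for Kcnab3.

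Pcsk2, a protease that matures neuropeptides and hormones, had 30.3 FPKM in cortex and at most 0.0898 elsewhere. Its opposite transcripts Pcsk2os1 and Pcsk2os2 had 4.52 and 1.11 FPKM in cortex and at most 0.0115 and 0.0171 elsewhere. Nrg3os had 1.41 FPKM in cortex and 0 in every other library, as did Bcas1os1, with 1.35 FPKM. Their partners are Nrg3, an ERBB4 ligand of neurons, at 4.39 FPKM in cortex, and the oligodendrocyte gene Bcas1, at 29.2. Ppp2r2cos had 1.67 FPKM in cortex opposite the phosphatase subunit gene Ppp2r2c at 22.8, and Plxna4os3 had 1.47 opposite the semaphorin receptor gene Plxna4 at 9.82. St8sia3os was also enriched in cortex at 16.9 FPKM, but St8sia3, a sialyltransferase gene, had 2.54 in cortex and 1.18 in liver and did not pass the rule.

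In kidney, Lhx1os and Lhx1, a LIM homeobox gene of nephron development, start 125 bases apart in opposite directions. Lhx1os had 8.77 FPKM in kidney, 0.0929 in VAT, 0.0228 in cortex, 0.00799 in BAT and 0.00245 in liver, and was listed at 0 in muscle and SCAT. Lhx1 had 1.21 FPKM in kidney, 0.0281 in VAT and 0.00849 in cortex, and was listed at 0 in muscle, liver, SCAT and BAT. Both were nearly confined to kidney in these 7 libraries, and the os transcript was the higher by 2.76 on the log2 scale. Efhd1os had 24.7 FPKM in kidney, 5.17 in muscle, 3.17 in cortex, 3.12 in VAT, 1.81 in SCAT and 1.36 in BAT, and was listed at 0 in liver, and the mitochondrial calcium-binding protein gene Efhd1 had 7.28 FPKM in kidney, 0.974 in muscle, 0.742 in VAT, 0.725 in cortex, 0.365 in BAT, 0.349 in SCAT and 0.0223 in liver. Liver was the lowest tissue for both. Slc13a2os had 1.34 FPKM in kidney and at most 0.0282 elsewhere, opposite the dicarboxylate transporter gene Slc13a2 with 6.32 and at most 0.128. Gssos1 and Gssos2 share 1 row, with 3.12 FPKM in kidney and at most 0.553 elsewhere, and the glutathione synthetase gene Gss had 93.3 in kidney and 22.5 in liver.

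Among the liver pairs, Igf1os had 21.7 FPKM in liver, 1.90 in VAT, 1.46 in SCAT, 1.08 in muscle, 0.407 in BAT, 0.223 in kidney and 0.191 in cortex. Igf1, the growth factor that liver secretes under growth hormone, had 141 FPKM in liver, 10.04 in VAT, 6.85 in SCAT, 3.59 in muscle, 2.13 in BAT, 0.716 in kidney and 0.212 in cortex. The order of liver, VAT, SCAT and muscle was the same for both, and the os transcript was lower in every tissue. Prox1os had 1.33 FPKM in liver and at most 0.111 elsewhere, and the hepatocyte and lymphatic regulator Prox1 had 47.9 in liver and 4.65 in cortex. These values of Prox1 come from a row on the strand of Prox1os, and the row on the annotated strand had 4.17 and 0.311 FPKM. Egfros, given above, is the third liver pair. Sox5os1 and Rapgef4os3 were also enriched in liver, without their partners. Sox5os1 had 2.17 FPKM in liver and at most 0.401 elsewhere, whereas Sox5 had 9.36 in liver and 7.03 in cortex. Rapgef4os3 had 4.80 FPKM in liver and 0.681 in cortex, whereas the cAMP-activated exchange factor gene Rapgef4 had 58.6 in liver and 86.2 in cortex.

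Among the muscle pairs, Unc45bos had 16.3 FPKM in muscle, 0.410 in BAT, 0.101 in VAT, 0.0183 in SCAT and 0.0157 in liver, and was listed at 0 in kidney and cortex, and Unc45b, a myosin chaperone, had 94.4 FPKM in muscle, 2.64 in BAT, 0.797 in VAT, 0.442 in kidney, 0.273 in SCAT, 0.238 in liver and 0.0157 in cortex. Muscle and then BAT led both, and muscle markers were also present in BAT, whose part in the second place was not tested. Atcayos had 7.46 FPKM in muscle and 0.983 in cortex. Its partner row had 78.4 and 15.6, and it joins Atcay, a neuronal gene, with Nmrk2, a kinase of muscle, so that their parts cannot be told apart. Myadml2os had 6.93 FPKM in muscle and 0.879 in liver, and Myadml2 had 4.12 in muscle and was listed at 0 in liver.

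Among the 4 SCAT pairs, Aknaos had 8.49 FPKM in SCAT, 0.994 in VAT, 0.833 in muscle, 0.704 in liver, 0.585 in kidney, 0.515 in BAT and 0.339 in cortex, and Akna, an AT-hook gene of lymphocytes, had 6.05 FPKM in SCAT, 0.729 in VAT, 0.456 in liver, 0.422 in muscle, 0.417 in BAT, 0.367 in kidney and 0.180 in cortex. SCAT stood apart from the other 6 tissues for both. Gimap1os had 7.49 FPKM in SCAT and at most 1.06 elsewhere, opposite a row of the lymphocyte GTPases Gimap1, Gimap5 and Gimap7 with 20.0 and at most 3.02. Tspan32os had 5.32 FPKM in SCAT and at most 0.303 elsewhere, opposite the tetraspanin gene Tspan32 with 6.52 and at most 0.866. Arhgap15os had 1.05 FPKM in SCAT and at most 0.0546 elsewhere, opposite the Rac regulator gene Arhgap15 with 26.7 and at most 3.17. The 3 lymphocyte markers were high in the same library, with a summed 89.5 FPKM in SCAT against at most 2.80 elsewhere, and their part in these levels was not tested. Without the SCAT library 23 of the pairs enriched in a shared tissue were counted, against 27 with it.

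A further 45 pairs shared their highest tissue without both being enriched, with a median r of 0.97 and 33 pairs at 0.9 or more. In liver these were Sardhos, Hnf4aos, Hopxos, Notumos, Nr6a1os, Sox5os1, Tbx3os1 and the 3 transcripts Ube4bos1, Ube4bos2 and Ube4bos3. Hnf4aos had 16.5 FPKM in liver, 14.2 in kidney, 0.102 in VAT and 0.00610 in SCAT, and was listed at 0 in muscle, cortex and BAT, and the hepatocyte and tubule regulator Hnf4a had 207 FPKM in liver, 159 in kidney, 2.42 in VAT, 0.138 in muscle, 0.0360 in cortex and 0.0195 in SCAT, and was listed at 0 in BAT. Both were high in liver and kidney and at most 2.42 FPKM elsewhere. Each of these values comes from a row on the strand opposite to the gene's annotation, and on the annotated strands Hnf4aos reached 4.16 FPKM in kidney and Hnf4a 89.99 in liver. In kidney they were Far1os, Proscos on a row with Erlin2, Hoxb3os, Lrrc8dos, Rapgef3os1, Rapgef3os2, Arhgap27os3 and Tmem51os1, with os levels of 1.11 to 19.1 FPKM. Far1os at 19.1 FPKM followed Far1, a fatty acyl-CoA reductase gene, at 65.4, with cortex second for both and an r of 0.99. The partner value of Hoxb3os comes from a row that Hoxb3 shares with Hoxb5os and that lies on the strand of the os genes, so it is not an independent sense measurement. The row annotated on the sense strand had 2.27 FPKM of Hoxb3 in kidney.

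In cortex the pairs were St8sia3os, Zeb2os, Usp46os2, Plxna4os1, Fam219aos, Rsf1os1, Rsf1os2, Dgkeos, Srrm4os, Tmem150cos and Kcnd3os, with os levels of 1.11 to 16.9 FPKM and partner levels of 1.41 to 34.9. Zeb2os, antisense to the zinc finger repressor gene Zeb2, was broad, from 3.08 FPKM in liver to 9.11 in cortex, and so was Zeb2, from 7.03 to 24.6. The row of Zeb2os used here also carries Zeb2, and its row without that name was highest in BAT at 3.48 FPKM, with 2.64 in cortex, so that the shared cortex peak is seen on only 1 of the 2 rows. In BAT they were Abhd11os, Nudt12os, Pmepa1os, Taco1os, Bloc1s6os and Man2c1os. The value of Bloc1s6os, 3.97 FPKM in BAT, comes from a row that also carries Bloc1s6, and the row of Bloc1s6os alone had at most 0.0923 FPKM, in VAT, and 0 in BAT. Pmepa1os and Pmepa1, a TGF-beta target gene, showed the order of BAT over white fat and then muscle, with 10.8, 4.45, 4.45 and 1.38 FPKM in BAT, VAT, SCAT and muscle for the os transcript and 45.1, 14.5, 12.5 and 5.08 for the gene. Taco1os and Taco1, a translational activator of mitochondrial cytochrome oxidase, had 8.46 and 16.6 FPKM in BAT and 0.583 and 1.56 in SCAT. In muscle they were Rab10os, Wdr83os, Cebpzos, Fam120aos, Ccdc142os, Arhgap20os and Bcas3os1. Arhgap20os had 1.11 FPKM in muscle and 0.878 in cortex, and Arhgap20 had 27.1 and 15.3, with the other 5 tissues lower for both.

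In SCAT the 3 pairs were Ppp1r18os, Rbm3os and Bach2os. Bach2os, opposite the B-cell transcription factor gene Bach2, had 1.03 FPKM in SCAT and at most 0.410 elsewhere, and Bach2 had 8.67 and at most 2.94, again in the library with lymphocyte markers. Rbm3os had the lowest r of the 45 pairs, 0.24. It lay between 1.5 and 3.92 FPKM opposite the cold-induced RNA-binding protein gene Rbm3, which lay between 21.8 and 62.6. The row of Rbm3os is shared with Tbc1d25 and that of Ppp1r18os with Mdc1, so that their parts cannot be told apart.

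The highest tissue differed in 36 pairs, with a median r of 0.48 against 0.97 over the pairs that shared it. In 17 of the 36 both members lay within 2-fold, on the log2(FPKM + 0.1) scale, of their own maximum in the tissue where the other was highest, and in 11 pairs 1 member did and the other did not. In the other 8 neither did, and 9 of the 36 had an r of at least 0.9. Ctcflos with Ctcfl, Chd3os with Chd3, Tnk2os with Tnk2, Slfn5os with Slfn5, Sorbs2os with Sorbs2, Ccpg1os with Ccpg1, Rapgef4os2 with Rapgef4, Prss23os with Prss23 and Hoxd3os1 with Hoxd3 were these 9. Ctcflos, for example, had 6.80 FPKM in liver and 4.89 in VAT, and Ctcfl had 1.14 and 1.36. This row of Ctcflos lies on the strand opposite to its annotation. On the annotated strand it was highest in BAT at 5.55 FPKM, with 4.37 in liver and 4.28 in VAT. Without replicates near ties like that of Ctcflos do not give an order. Rapgef4os2, with 6.85 FPKM in liver and 1.66 in cortex, was not such a tie. Among the others with at least 1 member within 2-fold were Zmiz1os1, Map2k3os, Sp3os, Fbxl12os, Sox6os, Toporsos, Tnfsf13os, Tmcc3os, Prkag2os1, Prkag2os2, Ino80dos, Rab26os, Epb41l4aos, Atad3aos, Zbtb11os1, Slc7a6os and Rapgef4os3. Of these, Ino80dos stood out in level, with 25.5 FPKM in BAT, 14.9 in muscle, 7.07 in kidney, 4.87 in liver, 4.33 in cortex, 2.08 in SCAT and 1.96 in VAT, while the chromatin remodelling gene Ino80d stayed between 1.05 and 1.84 FPKM. Slc7a6os, a protein-coding gene, varied only from 3.31 to 5.59 FPKM, whereas the amino acid transporter gene Slc7a6 ranged from 0.0833 in liver to 4.85 in BAT. Zbtb11os1, whose promoter window is shown above, lay between 0.635 and 2.11 FPKM, and its partner row is shared with the ribosomal protein gene Rpl24 and had 109.8 to 363 FPKM.

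In 8 pairs each member was over 2-fold lower in the other's highest tissue. The widest split was that of Chrna1os and Chrna1, the muscle acetylcholine receptor subunit. Chrna1os had 2.80 FPKM in liver, 1.59 in BAT, 0.947 in kidney and 0.869 in VAT, with 0.674 in cortex and 0.443 in SCAT. Chrna1 had 7.53 FPKM in muscle, 1.01 in BAT, 0.0713 in cortex and 0.0371 in VAT, and was listed at 0 in liver, kidney and SCAT. On this row the os transcript was thus present in 6 tissues and listed at 0 in muscle, where the partner was highest, and r was -0.67. Further rows of Chrna1os, on the strand opposite to its annotation, had 0.119 and 0.0687 FPKM in muscle and were also highest in liver. The Chrna1 row lies on the strand opposite to its annotation, and the row on the annotated strand reached 1.92 FPKM in muscle. Dnm3os, a host of microRNAs within the dynamin gene Dnm3, had 1.89 FPKM in muscle, 1.51 in VAT, 1.42 in liver, 1.22 in SCAT, 1.06 in kidney and 0.790 in BAT, and was listed at 0 in cortex. Dnm3 had 20.8 FPKM in cortex, 1.88 in muscle, 0.903 in kidney, 0.478 in VAT, 0.426 in SCAT, 0.206 in BAT and 0.0286 in liver. The os transcript was listed at 0 in cortex, the one tissue where Dnm3 was high, and r was -0.77. This row of Dnm3os lies on the strand opposite to its annotation, and the row on the annotated strand was highest in cortex, as Dnm3 was, with 0.642 FPKM, so the split is seen on only 1 of the 2 rows of Dnm3os. Fcnaos had 5.65 FPKM in muscle, 3.10 in cortex, 2.30 in BAT, 2.02 in kidney, 1.63 in liver, 1.48 in VAT and 1.46 in SCAT. Fcna, the macrophage lectin ficolin-A, had 18.3 FPKM in liver, 14.3 in VAT, 4.84 in SCAT, 3.20 in muscle, 1.68 in BAT, 0.0395 in kidney and 0.0268 in cortex. The os transcript was highest in muscle and the gene in liver and VAT.

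Plet1os had 2.23 FPKM in BAT, 1.73 in muscle and 0.640 in kidney, whereas the epithelial surface gene Plet1 had 2.99 in kidney and 0.674 in BAT. Stamos had 1.01 FPKM in liver and 0.0795 in cortex, whereas Stam, an endosomal sorting gene, was highest in cortex at 42.1 against 19.8 in liver. This row of Stamos lies on the strand opposite to its annotation. The row on the annotated strand was highest in BAT at 0.614 FPKM, with 0.257 in liver and 0.152 in cortex, so that Stamos stays under 1 FPKM there. Stam had 36.8 FPKM in BAT, within 2-fold of its highest. With that row of Stamos the split of both members is thus not seen, and r was 0.57 in place of 0.02. Pitpnm2os1 and Pitpnm2os2 had 1.29 and 1.46 FPKM in liver and 0.423 and 0.356 in cortex, whereas Pitpnm2 had 4.85 in liver and 10.4 in cortex.

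**Figure D4:**
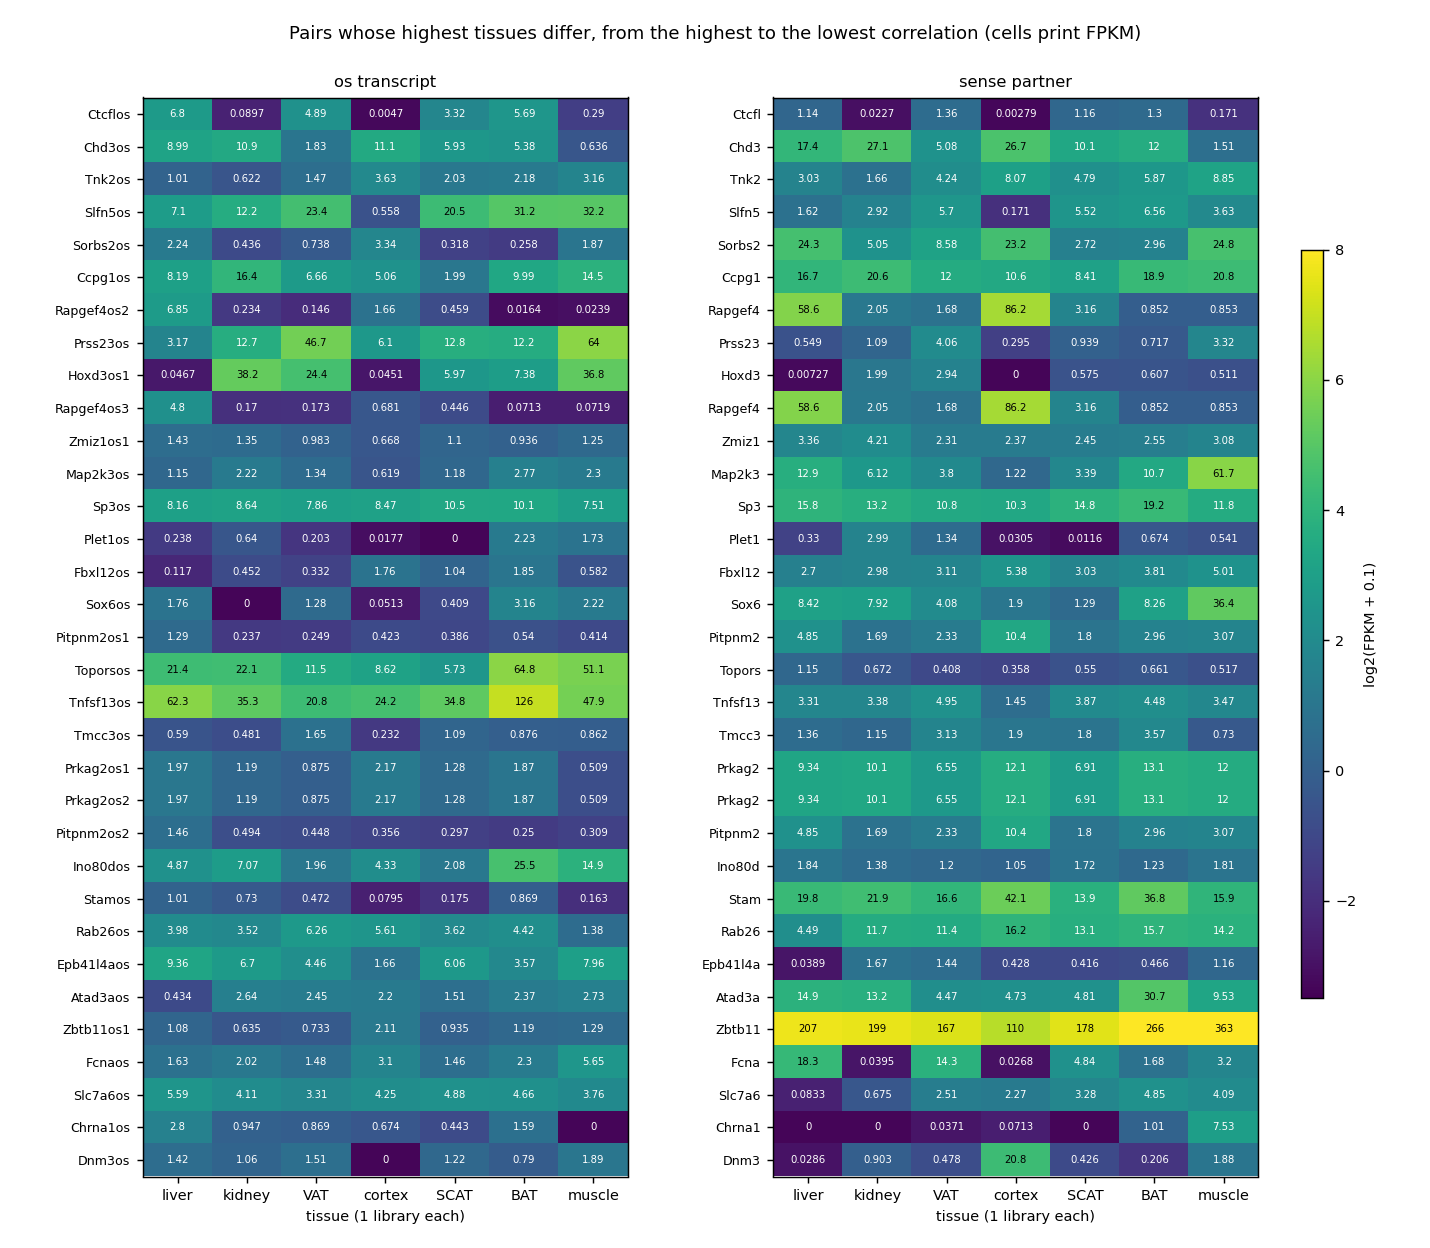
Heat maps of FPKM in 7 tissues (columns, 1 library each) for 33 of the 36 pairs whose highest tissues differ, os transcripts on the left and partners on the right, ordered from the highest to the lowest Pearson r, coloured by log2(FPKM + 0.1), with the FPKM printed in each cell. The upper rows look alike on both sides, and the split rows are at the bottom. There Chrna1os and Dnm3os are listed at 0 in the partner's highest tissue, on the row drawn for each.

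In most pairs the os transcript was the lower member. The median log2 ratio of os transcript to partner, both in FPKM with 0.1 added, was -1.39 in the os transcript's highest tissue, and it was -1.56 for the 689 antisense genes without the suffix. The os transcript was at least 4-fold lower in 42 of 108 pairs. It was higher in 27 pairs and at least 2-fold higher in 17. No such counts are given for the other antisense genes, so they do not mark a trait of the os names. Dnm3os, at 1.89 against 1.88 FPKM in muscle, counts as higher, but on the annotated strands its ratio was -4.30, in cortex. The largest ratios were 6.41 for Toporsos, 6.09 for Epb41l4aos, 4.96 for Slc7a6os, 4.86 for Chrna1os and 4.78 for Tnfsf13os. Their order depends on the 0.1 added. In liver, where these ratios were taken, Chrna1 was listed at 0, and Epb41l4a and Slc7a6 had 0.0389 and 0.0833 FPKM. The value of Epb41l4aos rests on a partner row on the strand opposite to the annotation, and with the row of Epb41l4a on its annotated strand, at 1.24 FPKM in liver, it was 2.82, with an r of 0.67 in place of -0.08. The lowest were -5.64 for Zbtb11os1, whose partner row includes Rpl24, and -5.07 for Prox1os, which was -1.58 with the row of Prox1 on its annotated strand. That change of row also turned the ratio of Plxna4os1 from -0.84 to 0.78.

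A list of transcription factor families, taken by symbol and including every numbered Zfp gene, held the partners of 42 of the 276 pairs, 33 different genes. Their os transcripts reached 1 FPKM in 15 pairs (35.7%), against 101 of 234 pairs with other partners (43.2%). The other 27 stayed under 1 FPKM and 13 of them under 0.1, among them Otx2os1 at 0.0173, Pax6os1 at 0.0150 and Six3os1 at 0.0223 FPKM, the os genes of regulators of the forebrain and eye. Dlx6os1 had 0.331 FPKM in cortex opposite the interneuron gene Dlx6 at 0.606. Sox5 has 5 os names in the table, of which Sox5os1 alone reached 1 FPKM. Sox6os had 3.16 FPKM in BAT and was listed at 0 in kidney, where Sox6, highest in muscle at 36.4, had 7.92. Both members were at 1 FPKM or more in 12 pairs on separate rows, and 8 of these (66.7%) shared their highest tissue, with a median r of 0.88. The 96 pairs with other partners shared it in 64 cases (66.7%), with a median r of 0.94. The pairs of the listed families thus gave the same share as the rest. The rest also holds transcription factors outside the list, such as Bach2, so these values do not set transcription factors against other genes.

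Among the Hox and T-box pairs, Hoxd3os1, Hoxb3os and Hoxb5os were each highest in kidney, at 38.2, 7.11 and 4.84 FPKM, and at most 0.0451 in cortex. Tbx3os1 and Tbx3 were both highest in liver, at 2.91 and 4.85 FPKM. Nr6a1os was at 2.04 FPKM in liver on a row that also carries Mir181a-2 and Mir181b-2.

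The likeness of the profiles differed between arrangements of the annotated genes. Tail to tail with overlap, 12 of 13 pairs with both members at 1 FPKM or more shared their highest tissue (92.3%), with a median r of 0.98. With the os gene inside the partner it was 31 of 43 (72.1%) with a median r of 0.95, and head to head with overlap 22 of 31 (71%) with a median r of 0.94. Head to head but apart it was 4 of 10, with a median r of 0.81, and tail to tail but apart 0 of 3, namely Epb41l4aos, Slc7a6os and Fbxl12os, of which Fbxl12os was highest in cortex, as Fbxl12 was, on its annotated strand at 0.711 FPKM. With the partner inside the os gene it was 2 of 5, with a median r of 0.63. Pairs whose starts lie head to head within 1000 bases, among them Lhx1os, Uchl1os, Prox1os, Kcnmb4os2 and Pmepa1os, shared the highest tissue in 16 of 21 cases (76.2%), with a median r of 0.93. Of the pairs with any exonic overlap 56 of 74 (75.7%) shared the highest tissue, with a median r of 0.95, and of those without it 15 of 31 (48.4%), with a median r of 0.82. Of the 11 pairs with at least 50% of the os exons inside exons of the partner 7 (63.6%) shared it, with a median r of 0.95. Antisense genes without the os suffix had median r values of 0.93 and 0.84 with and without exonic overlap. These counts are small, carry no test and are not independent of each other.

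**Figure D5:**
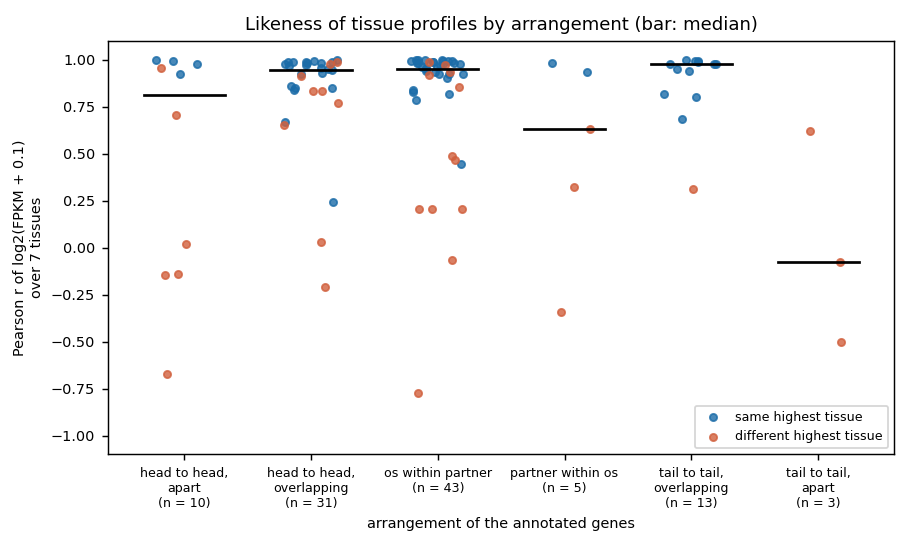
Pearson r of log2(FPKM + 0.1) over 7 tissues (y axis) for the os pairs with both members at 1 FPKM or more, by the arrangement of the annotated genes (x axis), with 1 point per pair, blue for pairs with the same highest tissue and orange for the others, and a bar at the median. Points under 0.5 occur in all 6 arrangements, and the lowest bar is that of the 3 tail-to-tail pairs that do not overlap.

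Reads of overlapping antisense exons can be told apart only by strand. The libraries were made with a directional kit, but the sources used here do not say whether cuffdiff was run with strand. The table has no strand column, and the order of its rows gives a strand that matched the annotation for 98 of 108 os rows and 91 of 108 partner rows. Where both rows matched, 59 of 83 pairs (71.1%) shared the highest tissue and the median r was 0.94. Of 3422 names with a row on each strand and at least 10 FPKM on the annotated one, the row on the other strand had a median of 20.8% of that FPKM, with quartiles of 9.58% and 49.8%, and it was the higher row for 449. For the 31 partners among these names the median was 35.4%. Signal of a gene on the opposite strand was therefore a regular feature of the table, and its part in the likeness of os transcripts and partners was not tested. Beside those given above, rows on the annotated strand were over 1.5 times lower at their highest for Ccpg1os at 3.37, Fbxl12os at 0.711 and Map2k3os, whose row is shared with Natd1, at 0.220 FPKM, and for the partners Bcas1 at 10.4, Brip1 at 0.413, Notum at 8.28, Plxna4 at 3.13 and Srrm4 at 0.157 FPKM. The agreement of the highest tissue changed in 4 pairs, since Dnm3os, Fbxl12os and Map2k3os were then highest in the tissue of their partner and Hnf4aos was not. In 5 of the 27 pairs enriched in a shared tissue a row on the other strand had been used, and all 27 were enriched in that tissue on the annotated strands too.

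Rows shared by both members were few, but in 37 of the 108 pairs at least 1 row carries some other name as well. In 2 pairs both names stand on 1 row, so that 1 value serves both and was not compared: Appbp2os with Appbp2, highest in cortex at 6.01 FPKM, and Zfp85os with Zfp85, highest in muscle at 8.0. The partners also have a lower row of their own, on which Appbp2 was highest in cortex, at 3.05 FPKM, and Zfp85 in cortex too, at 1.27 against 0.654 in muscle, so that the highest tissue of Zfp85os differs from that of Zfp85 on this row. Of the 274 pairs on separate rows, 238 have the same bounds, since the table gives each row the limits of the whole group of overlapping loci on both strands. In 7 pairs, the 2 above and those of Bloc1s6os, Egfros, Fam120aos, Zeb2os and Zmiz1os1, the os row also carries the partner's name, and in the last 5 the partner value came from another, higher row. Another 14 os names share their row with a second os name of the same partner, such as Rapgef3os1 with Rapgef3os2. With rows that carry any other name left out, 50 of 71 pairs shared the highest tissue and the median r was 0.96.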

How the data were processed

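RNA was measured in 7 tissues with 1 library each. Per the labels, total RNA was depleted of rRNA and made into directional paired-end libraries. The submitters' processing notes name Bowtie2 2.2.9, STAR 2.6.0c, Cufflinks 2.2.1 and cuffdiff, and the builds mm10 and GRCm38. The authors deposited cuffdiff's gene table of 21 comparisons, and only its FPKM values were used here. The table also holds the authors' fold changes, p-values and significance calls, which were not used. It gives no counts, so depth is unknown.

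Commas in the name column were split, the 151 rows marked FAIL were dropped, and the row with the highest FPKM stood for a name. Profiles were compared as log2(FPKM + 0.1), which understates differences of low values. A gene was taken as measurable from 1 FPKM. With 1 library per tissue no test was run. Positions, types and strands came from the GENCODE vM21 annotation of GRCm38. The calling rule was checked on simulated data. The os transcripts of at least 1 FPKM in loci of their own are named except for 3 pairs that enter the counts but are not reported here, the heat maps print every tissue for the 12 highest os transcripts and for the pairs drawn as enriched in the same tissue or with differing highest tissues, and further names were picked with their values in view. The members and lists were chosen with earlier results of these data known. Python 3.11.15, pandas 2.3.3, NumPy 2.4.6 and matplotlib 3.10.9 were used.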

Additional observations from a re-analysis of the deposited data

How the results depend on the processing

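With a pseudocount of 1, 17 os transcripts and 15 pairs were enriched in place of 30 and 27, the median log2 ratio was -1.21 and the median r 0.95, and with 0.01 these medians were -1.41 and 0.92. With a minimum of 0.1 FPKM, 211 os transcripts and 205 pairs passed, 124 pairs shared the highest tissue, and the medians were -2.23 and 0.83. With a minimum of 5 FPKM, 52 os transcripts and 36 pairs passed, 29 shared the highest tissue, 16 os transcripts and 13 pairs were enriched, and the medians were -0.84 and 0.98. With any value above 0, 262 pairs entered, 138 shared the highest tissue, and the medians were -2.10 and 0.75. A 2-fold rule gave 48 enriched os transcripts. Only rows without a second name left 71 pairs, with medians of -1.13 and 0.96. Median log2 ratio and r were -1.38 and 0.93 under median-ratio scaling, -1.32 and 0.92 under upper-quartile scaling, -1.53 and 0.93 with the rows of a name summed, -1.42 and 0.95 without VAT and SCAT, and -1.41 and 0.95 without VAT. The ratio was -1.38 on the annotated strand, -1.37 without cortex and -1.37 without SCAT, and r was 0.93 with FAIL rows kept. Leaving out VAT or SCAT alone was chosen after seeing the data. Of 96 values recomputed, 56 stayed within 1.5 times the reported count or equal to 2 decimals and 40 moved, none of them to the other sign. Among single pairs, the log2 ratio of Pcsk2os1 became 0.029 and that of St8sia3os -0.59 without the cortex library, in which both were highest. Under median-ratio and upper-quartile scaling, 18 and 23 of the 108 pairs changed between a shared and a different highest tissue. These scalings shifted libraries by up to 0.31 and 0.49 on the log2 scale, both in SCAT. No paired analysis was possible because each tissue has 1 library and no test was run. The unknown depth limits all values near or under 1 FPKM.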
